A study of Mus musculus with 12 samples.

Results

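The regions described here are stretches of mouse hippocampal RNA that an antibody against 5-methylcytosine (m5C) enriched at 18 months of age in every library and at 3 months in none, in genes that were enriched somewhere in every library of both ages. They were found by joining the peaks of 6 peak lists into 24501 merged regions wherever peaks of the same strand met or overlapped. A merged region was kept when it had a peak in all 3 lists of 18-month mice and in none of the 3 lists of 3-month mice, and when it lay in a protein-coding gene, on that gene's strand, that had at least 1 peak in each of the 6 lists (an always marked gene). This gave 676 new 18-month regions in 553 host genes, of 2983 always marked genes and of 9385 genes with any peak. The rule used the presence of peaks by age, so the number of regions, their absence at 3 months and their host genes are descriptions and were not tested.

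The study compared hippocampi of aged mice (18 months) with hippocampi of young mice (3 months). All mice were female C57BL/6 animals of wild-type (WT) genotype, so that the groups differed by age alone as far as the labels say. Each age had 3 immunoprecipitated (IP) libraries, each with an input library and a peak list of its own. Nothing in the labels states that samples of the same age were taken from different mice, so that the spread between libraries may be partly technical.

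The mark m5C is a cytosine that carries a methyl group, placed in messenger RNA mainly by the methyltransferases NSUN2 and NSUN6 and bound by proteins such as the export factor ALYREF and the stabilising factor YBX1. In antibody-based mapping, RNA is broken into fragments, the antibody pulls down those that carry the mark, and a peak marks a stretch where pulled-down fragments pile up over the input. A peak therefore locates the mark to a stretch and not to a base, and a stretch without a listed peak may still have been enriched below the authors' limit.

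Sequence is shown for the 4 new regions with the highest scores among those at the start of a gene span, because they are the new regions that lie at a known landmark. Each line gives DNA of the gene's strand from RefSeq (assembly GRCm38.p6, which is mm10), written 5′ to 3′ and ending inside the new region. Capitals mark the first 30 bases of the new region and lower case the bases before it. They lie at chr13:104228361-104228640 on the plus strand (Cenpk), chr3:51560849-51561073 on the minus strand (Setd7), chr7:36697868-36698147 on the plus strand (Tshz3) and chr5:3803095-3803374 on the minus strand (Ankib1).
Cenpk: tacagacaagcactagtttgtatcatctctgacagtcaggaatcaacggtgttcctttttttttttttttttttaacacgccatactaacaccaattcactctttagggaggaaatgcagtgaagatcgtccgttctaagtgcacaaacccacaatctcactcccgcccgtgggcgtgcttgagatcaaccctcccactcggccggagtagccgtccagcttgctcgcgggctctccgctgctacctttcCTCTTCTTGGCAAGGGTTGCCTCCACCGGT
Setd7: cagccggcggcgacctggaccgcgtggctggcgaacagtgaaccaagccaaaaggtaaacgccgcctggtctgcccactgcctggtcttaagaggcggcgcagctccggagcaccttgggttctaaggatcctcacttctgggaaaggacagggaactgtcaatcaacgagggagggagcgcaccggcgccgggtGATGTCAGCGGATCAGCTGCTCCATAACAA
Tshz3: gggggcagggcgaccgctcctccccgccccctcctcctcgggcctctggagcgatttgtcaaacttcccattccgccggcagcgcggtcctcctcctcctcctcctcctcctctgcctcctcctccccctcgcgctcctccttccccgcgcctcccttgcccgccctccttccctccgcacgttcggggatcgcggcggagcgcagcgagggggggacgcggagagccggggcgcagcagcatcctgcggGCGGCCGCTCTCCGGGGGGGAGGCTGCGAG
Ankib1: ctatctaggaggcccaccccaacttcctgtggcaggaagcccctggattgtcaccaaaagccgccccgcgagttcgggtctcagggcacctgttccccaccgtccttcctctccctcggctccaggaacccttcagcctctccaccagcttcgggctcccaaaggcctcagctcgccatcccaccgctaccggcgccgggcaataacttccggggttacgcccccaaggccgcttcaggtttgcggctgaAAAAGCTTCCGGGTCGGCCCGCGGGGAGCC

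In Cenpk, Tshz3 and Ankib1 the new region began exactly at the gene's annotated start, while in Setd7 it began upstream of it. Cenpk, a subunit of the inner kinetochore, had scores of 265, 271 and 292 in the 3 aged lists, and its region spanned 392 bases (chromosome 13, 104228611 to 104229002). Setd7, a lysine methyltransferase, had scores of 293, 449 and 236 (chromosome 3, 51560518 to 51560878). Tshz3, a zinc finger transcription factor, had scores of 225, 207 and 196 (chromosome 7, 36698118 to 36698289), and Ankib1, a ubiquitin ligase of the RING-between-RING type, had scores of 207, 392 and 185 (chromosome 5, 3802597 to 3803124). A score is the authors' own value per peak, from a lowest value near 50 in every list to a value of 3100 at which many peaks pile up, on a scale that the sources do not describe. Scores of different lists are set side by side below as listed, without a common scale, and ranks within each list are given where ages are compared over many regions. In each of the 4 genes the shared regions, which are those with a peak in all 6 lists, lay downstream, the nearest at 9266 bases in Cenpk, 17684 in Setd7, 70338 in Tshz3 and 32867 in Ankib1.

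Of all 24501 merged regions, 1258 (5.13%) had a peak in the 3 aged lists alone and 156 (0.637%) in the 3 young lists alone. The merged regions of always marked genes numbered 13352. The 676 new 18-month regions were 5.06% of them, and 58 regions (0.434%) had the opposite pattern, a peak in 3 young and 0 aged lists. Outside always marked genes, 582 of 11149 merged regions (5.22%) had a peak in the 3 aged lists alone, so the share of such regions was close inside and outside always marked genes. The aged lists held 15189, 14008 and 14294 peaks and the young lists 9887, 8549 and 10392. With only the 8549 best-scoring peaks of each list, the rule found 190 new 18-month regions and 95 with the opposite pattern, and 156 of the 676 were among the 190. The rule relaxes when a library is left out, and it then found 1082 regions without aged library 2, 1097 without aged library 3 and 1052 without young library 3. The libraries are of bulk tissue, in which fewer cells of a type and less RNA per cell cannot be told apart, and a peak depends on how much of the transcript there is as well as on its modification.

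**Figure D1:**
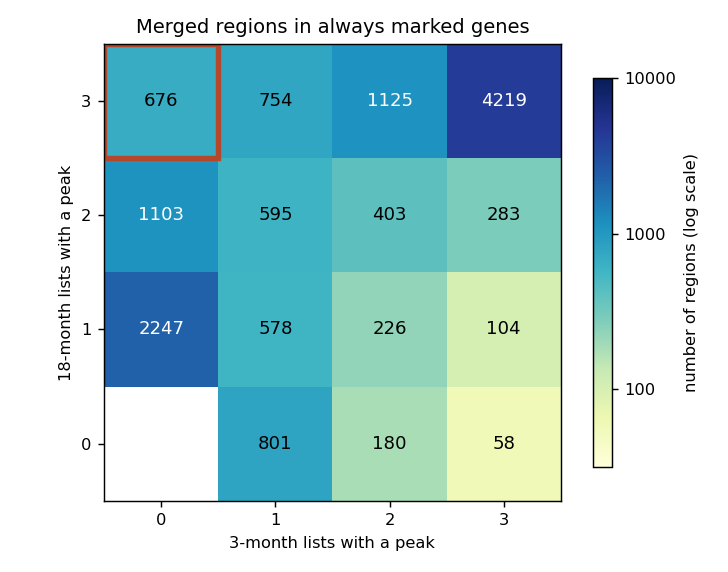
Number of merged regions in always marked genes by the number of 18-month lists with a peak (rows, 3 at the top) and of 3-month lists with a peak (columns), with shading on a log scale. The outlined cell holds the 676 new 18-month regions, the opposite corner holds 58, and 4219 regions had a peak in all 6 lists.

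Regions just outside the rule were common. In always marked genes, 754 regions had a peak in 3 aged lists and 1 young list, and 1103 had a peak in 2 aged lists and no young list. The median score in the aged lists was 108 for the new regions, 150 for those with 1 young list and 85.3 for those with 2 aged lists, and in the young list the median of the 754 was 82.1. The lowest scores of members just inside the rule were 50.01 in Kalrn, 50.1 in Hspa4 and 50.1 in Fbrsl1. Regions with a peak in 1 young list thus had the higher scores, and those with a peak in only 2 aged lists the lower ones.

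Most new regions had modest scores. Their median was 120 in aged library 1, 110 in library 2 and 98.0 in library 3, at percentiles 43.7, 40.6 and 36.5 of their own lists. The constant regions of the same genes, which are their 1034 shared regions, had medians of 647, 582 and 549 in the same lists. Of the 676 new regions, 128 scored under 100 in all 3 aged lists, 196 scored at least 100 in all 3, and 15 scored at least 1000 in all 3. The highest of the 3 scores of a new region was a median of 1.78 times the lowest and more than 2 times the lowest in 279 regions (41.3%). Within a gene, 517 of the 577 new regions in genes with a shared region scored below the best shared region in all 3 aged lists, and 12 scored above every shared region in all 3.

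**Figure D2:**
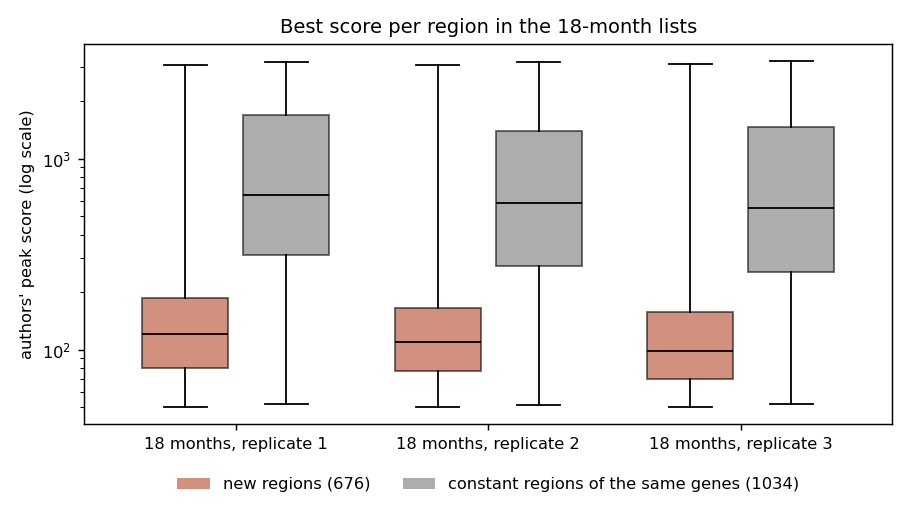
Best score per region on a log axis in each 18-month list, for the 676 new regions (left box of each pair) and the 1034 constant regions of the same genes (right box). Lines mark the medians, boxes the quartiles and whiskers the full range. The medians are 120, 110 and 98.0 for new regions and 647, 582 and 549 for constant regions.

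The 4 new regions that reached 3100 in every aged list lay in Nsmaf, Canx, Huwe1 and Srrm2. Nsmaf codes for an adaptor of the tumour necrosis factor receptor that acts on neutral sphingomyelinase, and its region spanned 53 bases on the minus strand (chromosome 4, 6432680 to 6432732), with scores of 3100, 3100 and 3122. Canx codes for calnexin, a lectin chaperone of the endoplasmic reticulum, and had its region on chromosome 11 from 50297274 to 50297394. Huwe1, a very large HECT-type ubiquitin ligase, had its region on chromosome X from 151890730 to 151890906, and Srrm2, a protein of the spliceosome and of nuclear speckles, on chromosome 17 from 23809969 to 23810046. Apart from the third value of Nsmaf these scores are at 3100, a value that many peaks share, so that most of them are tied.

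The next strongest region lay in Eif5b, the GTPase that joins the ribosomal subunits, with scores of 2679, 2428 and 2458 (chromosome 1, 38033068 to 38033157). Mtdh, a membrane protein of the endoplasmic reticulum, had 2366, 2308 and 2508 in a region 294 bases into the gene (chromosome 15, 34082736 to 34083413). Sart1, a splicing factor of the tri-snRNP, had 2524, 2111 and 2385 (chromosome 19, 5379504 to 5380135). These 3 regions scored alike in the 3 aged libraries. Ttc3, a ubiquitin ligase gene of the Down syndrome region in its human form, had 2721, 1699 and 3100 (chromosome 16, 94456711 to 94456811), between 2 of its 10 shared regions. Psmd1, a subunit of the proteasome's regulatory particle, had 2254, 1638 and 2327 (chromosome 1, 86132714 to 86132800), and Stim2, a calcium sensor of the endoplasmic reticulum, had 1964, 2008 and 1317 (chromosome 5, 54105221 to 54105398). Psmd1 and Stim2 are among the genes whose new region scored above every shared region in all 3 aged lists, with Canx and with Pfkm, the muscle type of phosphofructokinase (1039, 1391 and 1664). Chgb, a granin of dense-core vesicles, had 1471, 1297 and 1769 at the end of the gene (chromosome 2, 132794752 to 132795079). Cdk5, a kinase of neurons that works with p35, had 2894, 2471 and 1288 (chromosome 5, 24422798 to 24422886).

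In several of these genes the young lists had their own peak close by. Of the 58 always marked genes with a region in 3 young and 0 aged lists, 24 (41.4%) also held a new 18-month region, which is 4.34% of the host genes. For comparison, 18.5% of all always marked genes were hosts and 1.94% had a 3-month region, but both kinds of region were chosen by the same presences and the overlap was not tested. In Nsmaf the 3-month region lay 530 bases upstream of the strong new region, with scores of 2181, 1165 and 1578 in the young lists and no peak in the aged lists. None of the 4 merged regions of Nsmaf had peaks at both ages, so that its peaks lay at different places at 18 months and at 3 months. Cdk5 had the same arrangement, with new scores of 2894, 2471 and 1288 in aged libraries and a 3-month region 562 bases upstream that scored 1777, 1037 and 1171 in young libraries (chromosome 5, 24423449 to 24423530). These were the only merged regions of Cdk5. Sart1 likewise had just these kinds of region, with its 3-month region 3484 bases upstream at 1087, 558 and 1629 in the young lists. In Ttc3 the 3-month region lay 1119 bases downstream of the new one and scored 811, 470 and 1363.

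The 24 genes gave 28 pairs of a new and a 3-month region, with a median gap of 5809.5 bases. The gap was at most 1000 bases in 7 pairs, and in 6 of these 7 the 18-month region lay downstream of the 3-month region along the gene. Among the 7 were those of Nsmaf, Cdk5, Cwf19l2, Slc4a8, Dhx16 and Pramel42, named here after their values had been seen. The exception in direction was Pramel42, a member of a gene family with near-identical copies among which reads may be split. Dhx16, an RNA helicase of the spliceosome, had 728, 528 and 256 at 18 months and 149, 299 and 165 at 3 months, with no shared region in the gene. In 13 of the 28 pairs the gap was over 10000 bases, as in Trip12 (13788 bases), a HECT-type ubiquitin ligase, and in Cdc42bpa, a kinase that binds CDC42.

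A related pattern appeared where a shared region lay close to a new one. To compare scores across lists, the 4317 regions with a peak in all 6 lists were ranked in each list by best score and given a rank as a percent, so that the same regions are ranked at both ages. The 29 shared regions nearest to a new region and at most 1000 bases from it had a mean rank of 41.0, 37.7 and 42.0 in the aged libraries and 57.2, 58.7 and 52.6 in the young libraries. The 2 ages did not overlap, at 40.2 ± 2.23 at 18 months and 56.2 ± 3.21 at 3 months (SD, n = 3 each). The rank was lower at 18 months in 26 of the 29 shared regions, against 50.5% of all 4317. It was lower in every aged than in every young list in 14 of the 29 (48.3%), against 15.3% of all 4317. Of the 14, the regions of Chgb and Kif21a scored 3100 in all 6 lists and differ in rank through ties alone; without such regions the counts were 12 of 27 (44.4%) and 10.6% of all. The distance classes were set after the values had been seen, so no p-value is given.

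Shared regions farther away had mean ranks that were slightly higher at 18 months. Between 1000 and 5000 bases from a new region, 173 shared regions had a mean rank of 51.0 ± 0.840 at 18 months and 48.8 ± 0.200 at 3 months, and beyond 5000 bases 320 had 46.9 ± 0.708 at 18 months and 45.3 ± 0.791 at 3 months (SD, n = 3 each). A shared region of Srrm2, 1853 bases from its new region, was an exception to these means, with a rank difference of −84.5 (18 minus 3 months). The 12 shared regions nearest to a new region that scored at least 1000 in all 3 aged lists, at any distance, had a mean rank of 59.6 ± 2.10 at 18 months and 81.1 ± 1.47 at 3 months (SD, n = 3 each). Those of Canx, Huwe1, Eif5b, Stim2, Chgb, Eea1 and Tcf25 lay within 1000 bases and were already among the 29 above. The 12 are therefore not a separate set. Other regions of always marked genes with more aged than young lists also had shared neighbours within 1000 bases, and those 204 neighbours had a mean rank of 51.9 ± 0.825 at 18 months and 52.3 ± 0.525 at 3 months. For regions with more young than aged lists, the 72 neighbours had 56.5 ± 1.34 at 18 months and 53.3 ± 0.367 at 3 months. The 7 of them beside 3-month regions had 53.6 ± 5.37 at 18 months and 55.2 ± 8.32 at 3 months, too few to compare. For the 29 shared regions within 1000 bases the difference was −15.9 (18 minus 3 months). Leaving out a library relaxes the rule. The difference then was −9.24 without aged library 2 (48 shared regions), −10.2 without aged library 1 (41) and −10.5 without young library 2 (43). It was −21.3 with lists of equal length, on 15 shared regions. With the peaks at or above the median score of each list it was −26.1, on 12 shared regions.

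Single genes show how large the difference in score was. In Huwe1 the shared region 833 bases downstream of the new one scored 203, 461 and 248 in aged libraries and 2581, 1245 and 2963 in young libraries (chromosome X, 151891740 to 151892098), while the new region scored 3100 in every aged library. The other 2 shared regions of Huwe1 did not differ in this way, as 1 of them scored 2675, 2278 and 2544 in aged and 2673, 569 and 1731 in young libraries, and the other 3100 in all 6. In Srrm2 the shared region 1853 bases downstream scored 103, 76.1 and 107 in aged libraries and 2059, 2063 and 2095 in young libraries (chromosome 17, 23811900 to 23812620). The other shared region of Srrm2, upstream of the new one, scored 3100, 2745 and 3100 in aged and 2147, 1656 and 3100 in young libraries. In Canx the shared region at the end of the gene, 938 bases downstream, scored 1527, 778 and 684 in aged libraries and 3100 in each young library. Canx's shared region at the start of the gene scored 1152, 1651 and 1844 at 18 months and 803, 871 and 672 at 3 months. Higher scores at 18 months were usual for shared regions. The 1034 constant regions of host genes had medians of 647, 582 and 549 in aged lists and 357, 228 and 303 in young lists. In Stim2 the shared region 650 bases upstream scored 950, 647 and 557 in aged libraries and 1156, 740 and 1190 in young libraries. Kdm5a, a histone H3 lysine demethylase, was picked after its values had been seen: its new region scored 1568, 887 and 877, and the shared region 661 bases upstream of it scored 309, 175 and 197 in aged and 1272, 954 and 1102 in young libraries. Not every close neighbour was lower, as the shared region of Jakmip2, a protein that binds Janus kinases and microtubules, scored 304, 380 and 513 at 18 months and 113, 106 and 134 at 3 months beside a new region of 56.3, 68.5 and 72.2.

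**Figure D3:**
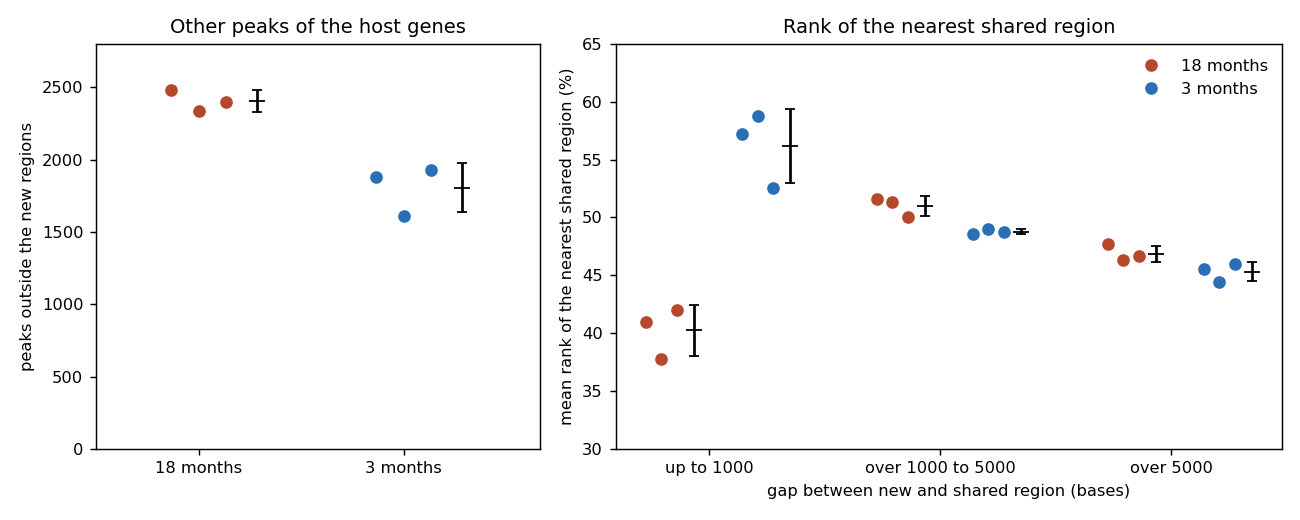
Left, number of peaks outside the new regions in the 553 host genes, by library. Right, mean rank (percent, among the 4317 regions with a peak in all 6 lists) of the shared region nearest to a new region, by the gap between them. Points are libraries, 18 months left of 3 months in each pair, and bars are means with SD (n = 3). At gaps of up to 1000 bases the 18-month libraries lie between 37.7 and 42.0 and the 3-month libraries between 52.6 and 58.7.

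The spacing of new and shared regions was near that of regions at large in these genes. The nearest shared region of the same gene was a median of 9101 bases from the new region (lowest 587, quartiles 3119 and 27143, highest 743041), and over 10000 bases away for 275 of the 577 new regions with a shared region in the gene (47.7%). Over all regions of always marked genes the median gap to the nearest shared region was 7992 bases, with 44.9% over 10000 bases, and for the constant regions of the host genes it was 5270.5 bases. No new region lay within 500 bases of a shared region and 29 (5.03%) lay within 1000, against 0.596% and 4.60% of all regions of always marked genes. The closest were those of Dnal1, a light chain of axonemal dynein, at 587 bases, Prrc2c, a protein of stress granules, at 605, Crnkl1, a spliceosome protein, at 608, and Sms, the spermine synthase, at 630. Their scores were 308, 210 and 279 in Dnal1, 402, 355 and 233 in Prrc2c, 52.2, 58.2 and 64.5 in Crnkl1, and 92.3, 121 and 119 in Sms. The farthest were in very long genes. Magi2, a scaffold of the synapse, held new regions 743041 and 694333 bases from its only shared region, and Diaph2, a formin, and Ephb1, an ephrin receptor, held theirs at 539737 and 430687 bases.

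Along the gene, new regions lay more often before the shared regions than after them. Of the 676, 278 (41.1%) lay upstream of the first shared region of their gene, 116 (17.2%) between shared regions, 183 (27.1%) downstream of the last, and 99 (14.6%) in the 86 host genes without a shared region. Of the 461 outside the shared regions, 60.3% thus lay upstream. Among other regions of always marked genes that were not shared, 2539 of 5284 (48.1%) lay upstream, and among 3-month regions 13 of 32 (40.6%). In genes with a single shared region, 154 of 250 new regions (61.6%) lay upstream of it. The share upstream was 53.7% with lists of equal length and 52.6% with scores of at least 100. Peaks outside the new regions did not show it by age: 48.9% ± 1.19 of such peaks lay upstream at 18 months and 47.7% ± 2.66 at 3 months (SD, n = 3 each, exact permutation p = 0.6, two-sided, Benjamini-Hochberg adjusted p = 0.655 over 12 comparisons of libraries).

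**Figure D4:**
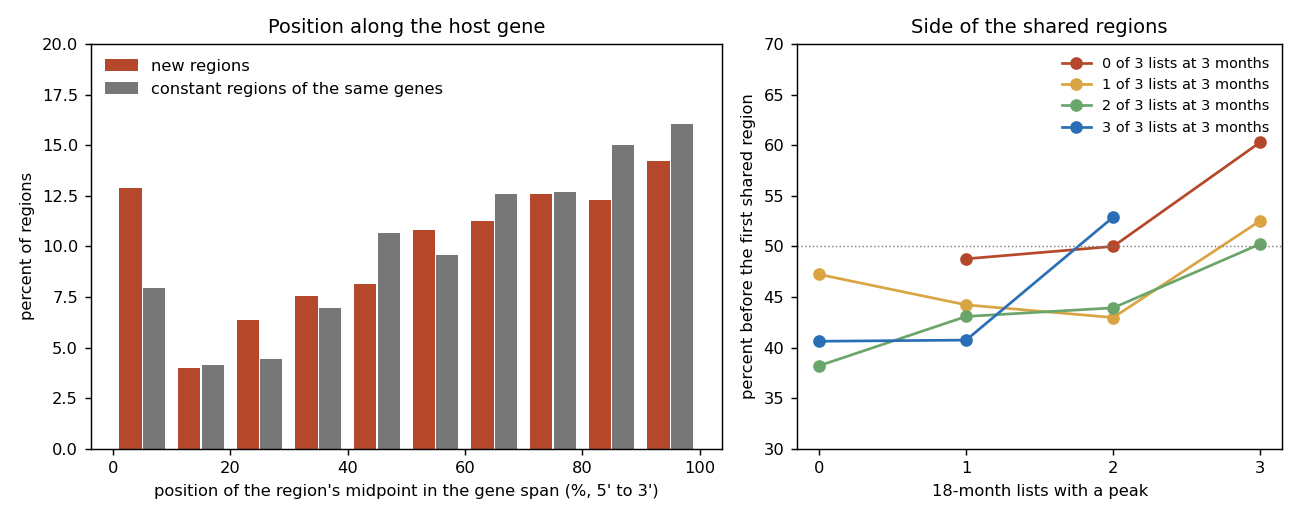
Left, position of the midpoint of new regions and of constant regions of the same genes along the gene span, in steps of 10%. Right, share of regions upstream of the first shared region among those outside the shared regions, by the number of 18-month lists (axis) and 3-month lists (lines) with a peak; the dotted line marks 50%. New regions lie at 12.9% in the first step against 7.93% for constant regions, and at 60.3% upstream.

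Part of the upstream regions lay at gene starts. The midpoint of 87 new regions (12.9%) fell in the first 10% of the gene span and of 96 (14.2%) in the last 10%, against 7.93% and 16.1% of the constant regions of the same genes. Of the 556 new regions in genes with a start listed by RefSeq, 61 (10.97%) overlapped the first 50 bases after a listed start. The same held for 49 of 867 constant regions of host genes (5.65%), for 8.60% of all regions of always marked genes and for 19.9% of the regions in 3 aged and 0 young lists of other genes. Of the 61, 30 began exactly at a listed start, 53 lay before the first shared region and 8 in genes with no shared region. None of these genes also had a shared region at a start. Without the 61, the share of new regions upstream was 55.1% of 408. Rab6b, a Rab GTPase of neuronal transport, had the strongest of them, at 436, 691 and 520, at a listed start 407 bases inside its gene span (chromosome 9, 103112074 to 103112226). Among the others were Cacnb1, a beta subunit of calcium channels (73.9, 207 and 66.6), and Ephb1 (119, 69.6 and 69.8). The start of the gene span itself was overlapped by 26 new regions, among them that of Ppp2r2a, a regulatory subunit of protein phosphatase 2A (240, 231 and 169). The windows around starts with a new region had a median GC content of 64.7%. This was close to the 64.5% of starts with a constant region in host genes, against 62.7% for all starts of the host genes.

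At the other end, 11 new regions overlapped the end of the gene span. The strongest were those of Chgb, given above, Pgrmc1, a haem-binding membrane protein (351, 379 and 468), Tenm4, a teneurin of neuronal connections (190, 185 and 299), and Snrnp27, a tri-snRNP protein (166, 266 and 170). In Chgb the shared region 656 bases upstream scored 3100 in all 6 lists. Tenm4's region was 5261 bases wide, and the widest of all, 6028 bases, lay near the end of Plxna4, a semaphorin co-receptor (72.6, 89.8 and 151). Most new regions were far narrower, with a median width of 178 bases, equal to the median of the constant regions of the same genes and below the 292 bases of aged-only regions outside always marked genes. Both ends were identical in the 3 aged lists in 531 of the 672 new regions with 1 peak per list (79.0%), against 86.4% for constant regions of the same genes in the same lists. Whether ends follow annotated exons was not analysed here.

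Most host genes held a single new region. There were 453 genes with 1, 82 with 2, 15 with 3, 2 with 4 and 1 with 6. The gene with 6 was Kalrn, a guanine nucleotide exchange factor of dendritic spines. Its strongest new region, at 1977, 348 and 1431, lay 7029 bases upstream of its first shared region (chromosome 16, 34219310 to 34220274), and the 5 others had scores between 50.01 and 280. One of these overlapped the start of the gene span (68.7, 113 and 67.1). Hspa4, a nucleotide exchange factor for heat shock protein Hsp70, had 4, of which 3 lay upstream of its 3 shared regions and the last, at 88.5, 564 and 635, at the end of the gene (chromosome 11, 53259814 to 53261815). Cit, the citron kinase, had 2 on each side of its single shared region, with scores between 53.0 and 166. The scores of Cit's new regions lay below those of its shared region, 309, 315 and 206, in all 3 aged libraries. The Cit region at 143, 125 and 119 was still above the medians of new regions, 120, 110 and 98.0. The end region of Hspa4 had a low score in library 1 alone.

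**Figure D5:**
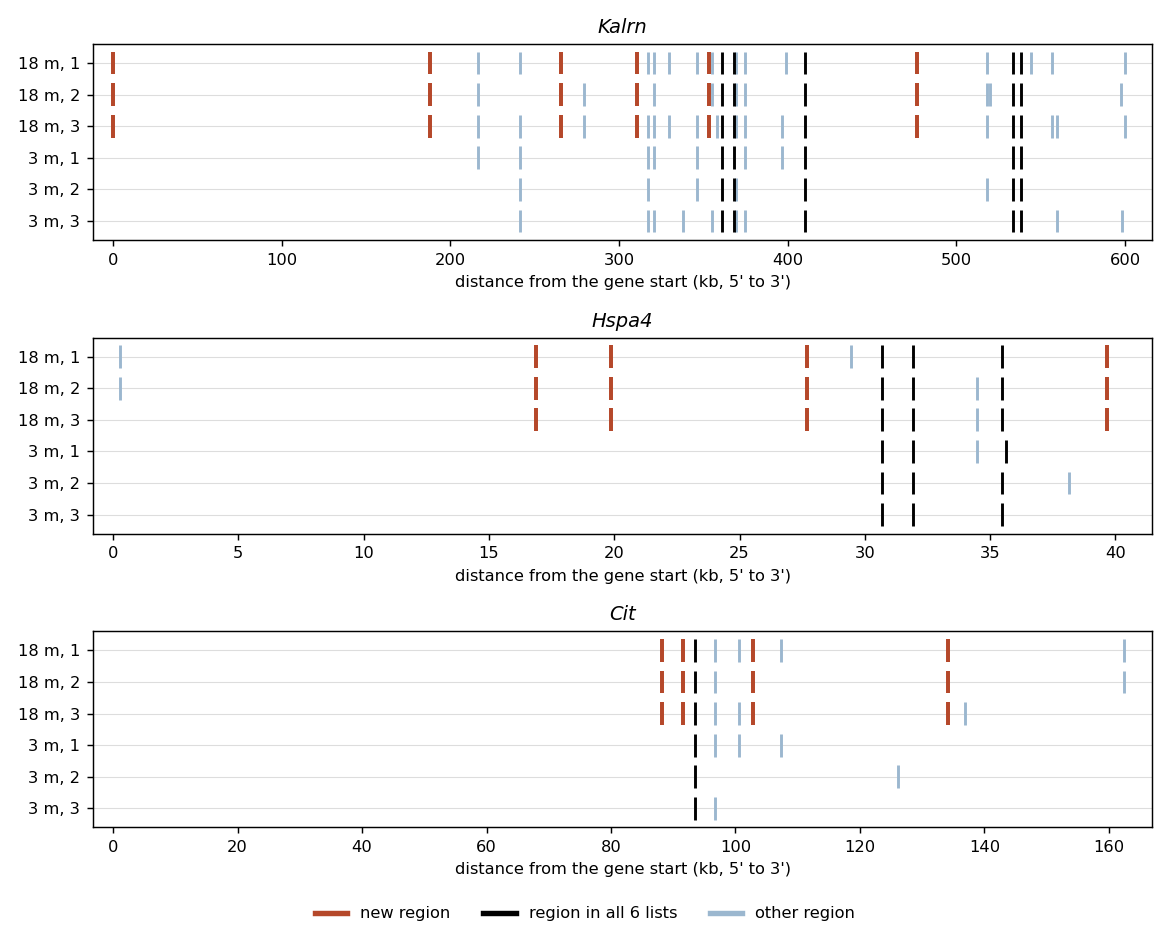
Peaks of Kalrn, Hspa4 and Cit along the gene span (kb from the gene start, 5′ to 3′), with a row for each library, 18 months above 3 months. Red marks new 18-month regions, black regions with a peak in all 6 lists and light blue other regions. Kalrn holds 6 new regions, 5 of them before its first shared region.

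Genes with 3 new regions included Ttc3, Wapl, Sptan1, Nos1ap and Itpr1. Wapl, the factor that releases cohesin from chromosomes, had all 3 upstream of its shared region, the strongest at 406, 447 and 241 and lying 4575 bases into the gene (chromosome 14, 34676954 to 34677474). Nos1ap, an adaptor of neuronal nitric oxide synthase, had its strongest at 278, 222 and 244 (chromosome 1, 170374721 to 170375306). The 123 neighbouring pairs of new regions of the same gene were a median of 22944 bases apart, and 4 pairs lay within 1000 bases.

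Host genes were longer than the other always marked genes and held more shared regions on average. Their median span was 75436 bases (quartiles 37341 and 146034), against 39762 bases in the other 2430 always marked genes. They held a mean of 1.87 shared regions, against 1.32, with a median of 1 in both sets. No shared region was present in 15.6% of the hosts and 15.5% of the others. Of genes of up to 20000 bases 7.48% were hosts, and of genes from 100000 to 200000 bases 26.8%. Per gene sequence the order was opposite, with 7.60 new regions per megabase in the shortest class and 0.758 in genes over 200000 bases. Shared regions fell too, from 102.5 to 3.61 per megabase. New regions were 3.25% of all merged regions in the shortest class and between 4.85% and 5.94% in the longer classes. The share of hosts was 18.6% in genes with no shared region, 13.1% in genes with 1 and 36.3% in genes with 5 or more. These lengths stand beside the gene groups that follow, and their part in the counts was not tested.

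The gene groups held 141 hosts among their 479 always marked genes (29.4%), above the 18.5% of all always marked genes, and the groups were written for hippocampal biology and hold many long genes. Calcium handling had the highest share, with 9 of 13 genes. These were the release channels Itpr1, Ryr2 and Ryr3, the pumps Atp2a2, Atp2b1 and Atp2b3, the exchanger Slc8a2 and the sensors Stim1 and Stim2. Slc8a2, which exports calcium from neurons in exchange for sodium, had 824, 681 and 535 (chromosome 7, 16140504 to 16141168), and Atp2b3, a plasma membrane calcium pump, had 428, 276 and 326 (chromosome X, 73545063 to 73545242). Itpr1, the inositol trisphosphate receptor, had 3 new regions, the strongest at 286, 359 and 72.0. Stim2 and Slc8a2 were thus well scored in all aged libraries, and the third value of Itpr1 was low.

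Cytoskeletal linkers followed, with 13 of 22 genes, among them the spectrins Sptan1, Sptb, Sptbn1 and Sptbn4, the spectraplakins Dst and Macf1, the ankyrin Ank2, the band 4.1 proteins Epb41l1 and Epb41l3, and Dmd, Utrn and Syne1. Dst, which ties actin to microtubules, had 1015, 501 and 748 (chromosome 1, 34169750 to 34169928), 4186 bases before the first of its 11 shared regions. Sptan1, the alpha spectrin of neurons, had 478, 197 and 565 in the strongest of its 3 (chromosome 2, 30008074 to 30008255). The always marked genes of this group had a median span of 158814 bases.

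Regulators of small GTPases held 11 hosts of 24. Besides Kalrn, which the lists count with synaptic adhesion, they included Trio, Srgap2, Srgap3, Nf1 and Rasgrf1. Srgap3, a Rac GTPase-activating protein, had 526, 291 and 331, and Nf1, the neurofibromin gene, had 260, 183 and 156. Nf1's new region lay 284 bases from a region with a young peak that was not shared by all lists. Ubiquitin ligases and proteases held 14 hosts of 32, among them the large HECT ligases Herc1, Herc2, Huwe1, Nedd4, Nedd4l, Trip12 and Hectd4. Hectd4 had 191, 235 and 294 in a region 713 bases into the gene (chromosome 5, 121220226 to 121220657).

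At the synapse, 11 of 28 presynaptic genes were hosts. Dnm1, the dynamin of vesicle retrieval, had 138, 369 and 207, and Pclo, a scaffold of the active zone, had 264, 129 and 151 near the end of the gene. Other hosts of this group included Nrxn2, Ppfia2, Rims2, Snap91, Stx1a, Syt1 and Syt2. Of the postsynaptic and adhesion genes 7 of 19 were hosts, among them Homer2 (110, 205 and 104), Shank1 and Cntn1. Among receptors and channels, 2 of 13 glutamate receptor genes (15.4%), 1 of 6 GABA genes (16.7%) and 2 of 21 voltage-gated channel genes (9.52%) were hosts, beside 18.5% of all always marked genes. Gria1, a subunit of AMPA receptors, had 630, 127 and 397, and Grin2b, a subunit of NMDA receptors, had 71.2, 145 and 93.5. The 1 GABA host was Gabbr2, a subunit of the metabotropic GABA receptor (80.1, 104 and 101.1). The always marked channel genes had a median span of 248290 bases.

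Of signalling kinases and phosphatases 11 of 28 were hosts, with Cdk5 the strongest and with Mtor, Ntrk2, Prkcb and the calcineurin subunit Ppp3ca among them. Prkar1a, the regulatory subunit of protein kinase A, had 421, 111 and 328. Of the Rab, sorting and autophagy genes 11 of 28 were hosts, among them Rab6b, Vps35 and Vps41 (159, 200 and 185). Motors and microtubule proteins had 6 hosts of 35, with Dync1h1, the heavy chain of cytoplasmic dynein (551, 240 and 493), Klc1 (329, 90.6 and 737) and Kif21a (321, 380 and 229). Of the mitochondrial and energy genes 5 of 13 were hosts, among them Pfkm, Opa1, a fusion protein of the inner membrane (157, 134 and 157), and Ndufs1, a subunit of complex I (185, 175 and 165).

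Among genes of RNA and chromatin, 10 of 35 splicing and RNA-binding genes were hosts. Srrm2 led them, Srrm1 and Srrm3 were hosts too, and Sf3b1, a core factor of branch site recognition, had 158, 196 and 144. Of chromatin regulators 14 of 51 were hosts, among them Ash1l, Kmt2a, Setd2, Ep300, Dnmt1 and Smarca4, an ATPase of the BAF complex (155, 128 and 113). Of translation factors 2 of 22 were hosts, Eif5b and Larp1, and of neuronal transcription factors 2 of 24, Myt1l (224, 104 and 100) and Camta1 (206, 114 and 83.4). Of the machinery of m5C and m6A itself 2 of 9 were hosts. Nop2, an NSUN-family methyltransferase of ribosomal RNA, had 90.1, 112 and 125, and its new region lay 95 bases from a region with a young peak. Zc3h13, a subunit of the m6A writer complex, had 133, 132 and 124. Heat shock proteins and chaperones held 3 hosts of 19, Canx, Hspa4 and Hspa9, and the genes linked to Alzheimer disease 1 of 13, App, the amyloid precursor (279, 295 and 497), whose 2 strongest shared regions scored 3100 in all 6 lists.

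Few markers of cell types were always marked, so that their counts of hosts are small. Of 7 markers of hippocampal principal neurons all had a peak in some list, 5 were always marked and 1 of these 5 (20%) was a host, Slc17a7, the vesicular glutamate transporter of excitatory neurons (275, 234 and 264). Of the markers of other cells, 0 of 4 always marked astrocyte genes, 0 of 4 oligodendrocyte genes, 0 of 2 endothelial and mural genes and 0 of 1 microglial gene were hosts. No listed inhibitory neuron marker was always marked, although 8 of 10 had a peak in some list. These counts cover the listed markers alone, and 412 host genes were in no gene list. Whether other genes of these cell types were hosts was not examined.

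Outside the new regions, the host genes had more peaks at 18 months. They held 2485, 2334 and 2401 such peaks in aged libraries and 1877, 1611 and 1931 in young libraries. The means were 2407 ± 75.7 at 18 months and 1806 ± 171 at 3 months (SD, n = 3 each), a ratio of 1.33, with every aged library above every young library (two-sided exact permutation test, p = 0.1, which 3 libraries against 3 cannot go below). The whole lists had a ratio of 1.51, which is not a like measure. They keep the peaks in new regions, 677, 677 and 679 in the aged lists and 0 in each young list. Of the whole lists, the host genes' other peaks made up 16.4%, 16.7% and 16.8% at 18 months and 19.0%, 18.8% and 18.6% at 3 months. These shares carry the same exclusion on 1 side. The other always marked genes had a ratio of 1.26, at 6427 ± 143 against 5115 ± 399 (two-sided exact permutation test, p = 0.1). As a share of the peaks of all always marked genes outside new regions, the host genes held 27.2% ± 0.199 at 18 months and 26.1% ± 0.361 at 3 months (SD, n = 3 each, exact permutation p = 0.1). The shared regions of host genes ranked above those of other always marked genes by 1.77 ± 0.535 percentage points at 18 months and by 0.335 ± 0.424 at 3 months (SD, n = 3 each, exact permutation p = 0.1). After adjustment over 12 comparisons of libraries by Benjamini-Hochberg these p-values were 0.133, and with 3 libraries of each age none could fall below 0.05. The host genes were chosen by their new regions, which are present in aged lists alone. Their other peaks and shared regions share the genes, the libraries and the list lengths with the rule. The choice itself can thus favour 18 months in peaks, share and rank, and these comparisons are not independent support. With lists of equal length the difference in peaks was 49.3 and that in share 0.299 percentage points (exact permutation p = 0.3). Without young library 2 the difference in share was 0.702 percentage points.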

How the data were processed

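Each age had 3 IP and 3 input libraries of hippocampal RNA. Reads were handled with cutadapt 1.9.3 and HISAT2 2.0.4 on mm10, per the submitters' processing notes; of the peak caller, no version or settings were given in the sources used here. The authors deposited 1 peak list per IP library, so peaks were called per sample. The score in each deposited list is the authors' own value per peak, on a scale that is not described. The lists carry no reads, so depth and the precision of a peak are unknown. A spreadsheet of methylated sites was not analysed here.

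Peaks of the same strand were merged where they met or overlapped (gap 0). A merged region was given to each of 21896 protein-coding gene spans of RefSeq (GRCm38.p6) that it overlapped by at least 1 base on the gene's strand. Strand came from RefSeq's start table for 17491 genes and otherwise from the gene's own peaks; 142 genes with a peak had none and were left out. Exons were not used. Coordinates count from 1. The work used Python 3.11.15, pandas 2.3.3, numpy 2.4.6 and scipy 1.17.1, and the merging and the tests were checked on simulated lists.

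Libraries were compared by two-sided exact permutation tests over 3 against 3 (smallest p 0.1), with Benjamini-Hochberg adjustment over all 12 made. The members, the gene lists and the tests were chosen with earlier results of these data known; the tests of ranks, of distance classes, of peaks upstream and the pairs of new and 3-month regions were added after the values had been seen. Host genes were named by rules that left out predicted genes and regions in more than 1 gene. The rules gave the 12 regions with the highest lowest score, the 8 genes with most new regions and up to 3 per gene list. They also gave the 4 nearest to and the 4 farthest from a shared region, and the 3 lowest. At gene starts and at gene ends the 4 strongest each were taken. Other genes were named as hosts in a gene list or after their values had been seen, also where the text does not say so. Jakmip2, Kdm5a, Trip12, Cdc42bpa, Eea1 and Tcf25 are among them. A few genes under these headings are not reported here. Alternatives were lists of equal length, the peaks at or above each list's median score, a score of at least 100, merging across gaps of 100 and 500 bases, regions wholly inside a gene or in exactly 1 gene, leaving out each library and a replicate block.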

Additional observations from a re-analysis of the deposited data

How the results depend on the processing

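The number of new 18-month regions was 190 with lists of equal length, 278 with the peaks at or above each list's median score and 426 with scores of at least 100, and the number of host genes was 181, 241 and 360 in these settings, where fewer peaks enter. The share of new regions upstream of the first shared region was 53.7% with lists of equal length and 52.6% with scores of at least 100. Leaving out 1 library relaxes the rule and gave 900 to 1097 regions, 724 to 827 host genes and 55.3% to 59.9% upstream. Merging across gaps, regions wholly inside a gene and regions in exactly 1 gene gave 666 to 675 regions. The difference in other peaks of host genes (18 minus 3 months) kept its direction in 14 of 14 alternatives (49.3 to 601.3), as did the difference in their share (0.299 to 1.23 percentage points), in rank of shared regions of host genes (1.04 to 2.52) and in rank of close neighbours (−26.1 to −9.24). The 14 are not independent, and the choice of host genes by new regions can favour the direction of their peaks, share and rank. The replicate block cannot change a difference, and the host genes of the full rule were kept when a library was left out. With libraries of the same number paired as a replicate block, the differences stayed 600.3 peaks and 1.16 percentage points, with an exact sign-flip p of 0.25, the smallest that 3 pairs allow. The deviations of same-numbered libraries correlated at −0.0122, 0.00137 and 0.0164, so the presence of peaks gave no sign of pairing by number. This check cannot show whether same-numbered libraries were handled together.

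The depth of the libraries is unknown, and the young lists are shorter, so a region without a young peak cannot be told apart from a peak below the limit of a shorter list. Of the 676 regions, 163 kept no aged peak with lists of equal length and 161 kept all 3. Many scores are exactly 3100, where ranks are tied.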

Other observations

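New regions were spread over the genome. The share of always marked genes that were hosts lay between 13.3% on chromosome 8 and 22.9% on chromosome 13. The strands were nearly even, with 345 new regions on the plus and 331 on the minus strand. In 6 of the 676 new regions the highest of the 3 aged scores was more than 10 times the lowest. The nearest region with any young peak was a median of 4134 bases from a new region, against 3954 bases over all regions of always marked genes.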
